A study of Homo sapiens with 4 samples.

Results

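The 1537 regions described here are peaks of the transcription factor TCF3 that lay near genes, beyond the first 1 kb from a gene end, and shared no base with a peak of ATOH8. Their midpoints were more than 1 kb and at most 5 kb from the nearest end of a protein-coding gene. They made up 13.6% (Wilson 95% interval 12.95 to 14.2) of the 11330 TCF3 peaks on chromosomes 1 to 22 and X, and 15.5% (14.8 to 16.2) of the 9913 TCF3 peaks without a shared base. Both deposited lists together held 16387 peaks. TCF3 was recovered through a Myc tag and ATOH8 through a Flag tag from the established prostate cancer line DU145 (human), after fixation in 1% formaldehyde for 10 min. Each factor had 1 ChIP-seq library and 1 input library, and the inputs were not analysed here. Whether the tagged proteins were introduced into the cells, and from which promoter, is not stated in the sources used here. With 1 library per group there is no replicate and no p-value. Intervals take in only the counting of peaks or genes, and neither peaks nor genes are replicates.

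TCF3 encodes E proteins of the basic helix-loop-helix (bHLH) class. E proteins pair with themselves or with tissue-restricted bHLH partners and bind the E-box, a short DNA word written CANNTG, with CAGCTG and CAGGTG among the forms they are known for. ID proteins lack a basic region and hold E proteins off DNA. E proteins are best known for their roles in B and T lymphocyte development and in the differentiation of nerve and muscle cells.

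The TCF3 list was held with 5 lines that carry no peak, and scores beside such lines jumped from 887 to 280, from 129 to 120 and from 41 to 38, so peaks with scores between were not analysed here. The ATOH8 list had 3 such lines, and its scores jumped from 996 to 356, from 326 to 280 and from 232 to 189. A TCF3 peak counted here as sharing no base with ATOH8 therefore shares none with the ATOH8 peaks that were held. The score is the authors' own value per peak. Its definition is not stated in the sources used here, and it serves only to rank peaks within a list. Read depth is not known from the lists. How reads that fit several near-identical genes were placed is not given either, so peaks at multigene families (TAF11-like, FOXD4-like, protocadherin and olfactory receptor genes) are uncertain in position.

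Sequence under some of these peaks is given by the RefSeq promoter windows (GRCh38.p14, 250 bases before to 50 after an annotated start). The sequences below are the 250 bases before the start, 5′ to 3′ on the strand of the gene, of all 7 windows that lay wholly inside the 4 highest-scoring peaks that held one. They are shown because these peaks lead by score among those with a sequence at hand. Capitals mark CANNTG, which reads the same way on both strands. The peak at ADCYAP1 (score 280) held windows at chr18:904621-904870 and chr18:905116-905365, plus strand, before a pair of ADCYAP1 starts, and one at chr18:906653-906902, minus strand, of the lncRNA gene LOC124904340.
ADCYAP1, first start: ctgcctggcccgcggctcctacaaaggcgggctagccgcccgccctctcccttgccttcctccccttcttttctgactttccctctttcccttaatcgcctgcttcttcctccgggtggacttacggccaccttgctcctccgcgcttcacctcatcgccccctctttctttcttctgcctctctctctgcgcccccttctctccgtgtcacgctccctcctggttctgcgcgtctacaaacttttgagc
ADCYAP1, second start: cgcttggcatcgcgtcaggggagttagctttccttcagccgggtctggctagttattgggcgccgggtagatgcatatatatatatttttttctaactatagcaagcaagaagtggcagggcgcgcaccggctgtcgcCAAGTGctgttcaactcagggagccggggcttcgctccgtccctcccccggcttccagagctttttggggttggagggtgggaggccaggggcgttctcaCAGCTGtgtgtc
LOC124904340: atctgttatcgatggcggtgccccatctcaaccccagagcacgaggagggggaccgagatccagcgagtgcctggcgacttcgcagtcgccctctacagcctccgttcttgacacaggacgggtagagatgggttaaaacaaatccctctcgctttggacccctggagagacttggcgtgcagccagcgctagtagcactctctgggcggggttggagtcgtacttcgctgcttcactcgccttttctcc
The peak nearest to FOXD4L3 (score 278) held a window of the lncRNA gene LOC107987077 at chr9:68306282-68306531, plus strand.
LOC107987077: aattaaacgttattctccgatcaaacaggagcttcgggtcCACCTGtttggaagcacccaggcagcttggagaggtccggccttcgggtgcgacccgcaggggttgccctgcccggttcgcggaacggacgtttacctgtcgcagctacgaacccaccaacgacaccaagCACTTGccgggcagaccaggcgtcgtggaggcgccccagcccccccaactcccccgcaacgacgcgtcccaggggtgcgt
The peak at NR2F1 (score 267) held a window of its antisense lncRNA gene at chr5:93584445-93584694, minus strand.
NR2F1-AS1: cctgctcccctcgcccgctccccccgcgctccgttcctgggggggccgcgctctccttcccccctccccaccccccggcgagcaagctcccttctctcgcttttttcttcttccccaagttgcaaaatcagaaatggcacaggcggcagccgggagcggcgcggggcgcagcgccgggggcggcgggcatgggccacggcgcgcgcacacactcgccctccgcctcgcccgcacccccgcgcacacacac
The peak at NTRK2 (score 267) held windows at chr9:84669783-84670032 and chr9:84670099-84670348, plus strand, before a pair of NTRK2 starts.
NTRK2, first start: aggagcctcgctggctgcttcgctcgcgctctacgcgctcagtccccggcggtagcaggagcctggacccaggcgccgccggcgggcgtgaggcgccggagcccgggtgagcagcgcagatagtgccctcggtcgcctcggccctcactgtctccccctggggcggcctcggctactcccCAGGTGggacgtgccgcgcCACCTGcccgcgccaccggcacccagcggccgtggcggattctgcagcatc
NTRK2, second start: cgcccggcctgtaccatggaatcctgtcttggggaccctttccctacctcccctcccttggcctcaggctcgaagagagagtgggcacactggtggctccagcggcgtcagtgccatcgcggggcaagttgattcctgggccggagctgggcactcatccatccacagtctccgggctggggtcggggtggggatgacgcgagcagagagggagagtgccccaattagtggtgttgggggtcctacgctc
Of the 7 sequences, 3 hold CANNTG and 4 do not. Those with it, the second at ADCYAP1, LOC107987077 and the first at NTRK2, hold 2 each, among them CAGCTG at ADCYAP1 and both CAGGTG and its reverse complement CACCTG at NTRK2. A sequence without it says only that these letters are not in those 250 bases.

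In all, 131 of the peaks held 174 whole promoter windows. Of these, 114 belonged to the nearest gene, 4 to another protein-coding gene and 56 to a lncRNA gene. An annotated start can lie inside the outer end of its gene, as at ADCYAP1 and NTRK2, so a peak whose midpoint is over 1 kb from a gene end can still cover a start. CANNTG, searched over all 300 bases, was present in 88 of the 174 windows (50.6%). It was present in 53.2% of the windows held by TCF3-only peaks within 1 kb of a gene end, in 68.5% of those held by ATOH8-only peaks and in 68.7% of all 34683 distinct windows. CAGCTG, one form of CANNTG, was present in 13.8% of the windows in the 1 to 5 kb peaks and in 17.95% of all windows. CAGGTG or CACCTG, also forms of CANNTG, was present in 21.8% and 20.6%. The windows in the 1 to 5 kb peaks had a median GC content of 72.0%, as had those in ATOH8-only peaks, against 73.3% in TCF3-only peaks within 1 kb and 58.7% over all windows. Among windows of at least 65% GC, CANNTG was present in 47.7% of those in the 1 to 5 kb peaks and in 54.8% of all. The part of base composition in these shares was not tested.

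Most of the peaks were narrow and modest in score, as were TCF3 peaks in general. Scores ran from 35 to 1190 with quartiles of 44, 57 and 80, and widths from 356 to 8274 bp with quartiles of 490, 716 and 1133 bp. Over all 11330 TCF3 peaks the quartiles were 44, 61 and 89 for score and 496, 719 and 1140 bp for width. Scores of the 1 to 5 kb peaks took 113 distinct values, 732 of these peaks scored 52 or less, and 35 scored over 200. These counts were not made over all TCF3 peaks. The median score of 57 (95% interval 52 to 61) lay below the 68 (65 to 70) of TCF3-only peaks within 1 kb of a gene end. It also lay below the 70 (66 to 79) of the 192 TCF3 peaks at the same 1 to 5 kb that overlapped an ATOH8 peak. TCF3-only peaks deeper inside genes had a median of 52, and those farther out between genes 61. Over the 1537 peaks Spearman's rho was 0.37 between score and width and -0.06 between score and distance, as a description of peaks from 1 library.

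**Figure D1:**
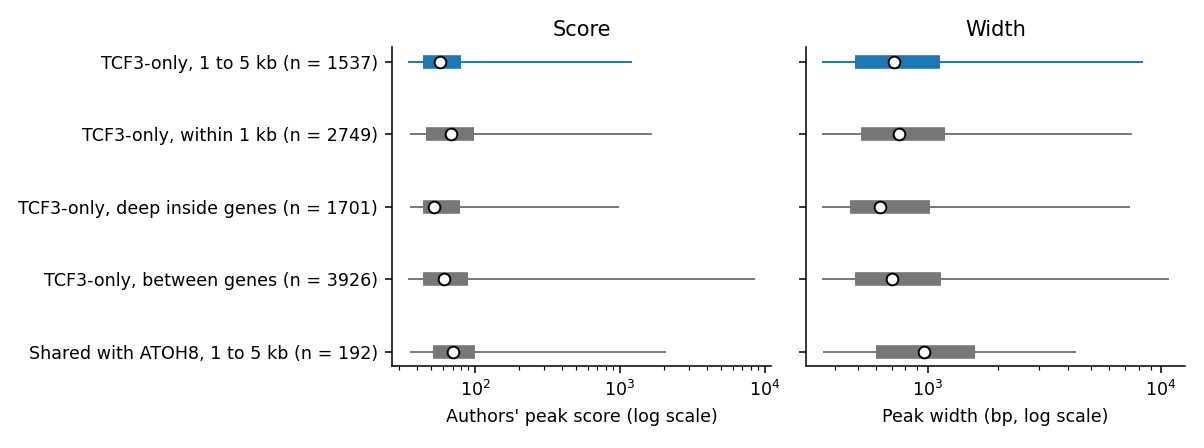
Authors' peak score (left) and peak width in bp (right), both on log scales, for 5 classes of TCF3 peaks, with the number of peaks in brackets. The circle is the median, the thick bar spans the quartiles and the thin line the lowest to the highest peak, and the TCF3-only peaks at 1 to 5 kb (blue) have medians of 57 and 716 bp.

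The highest score, 1190, belonged to a peak of 1699 bp downstream of TAF11L10, a TAF11-like gene (chr5:17595027-17596725). It lay in a 1 Mb bin with at least 20 TCF3 peaks, and another TCF3 peak lay 421 bp away and an ATOH8 peak 2209 bp away. The next 3 peaks tied at 280, the first score after the jump from 887, and each lay inside a gene next to its start. One was in ADCYAP1, which encodes a neuropeptide of the secretin family (chr18:904404-908638, 2110 bp from the gene end). Another was in ZBTB14, a zinc finger transcription factor gene (chr18:5294876-5295817, 1707 bp). The third was in LRFN5, a synaptic adhesion molecule gene (chr14:41609689-41610420, 3178 bp).

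Of the remaining 6 in the top 10, a pair scored 278. They lay downstream of the forkhead gene FOXD4L3 (chr9:68306240-68308048, 2060 bp) and upstream of BRMS1L, a component of the SIN3 corepressor complex (chr14:35824077-35825396, 1602 bp). The BRMS1L peak was 1018 bp from an ATOH8 peak. A second pair scored 267, inside NR2F1, an orphan nuclear receptor of neural development (chr5:93583973-93585375, 1452 bp), and inside NTRK2, the receptor for brain-derived neurotrophic factor (chr9:84669670-84670865, 1745 bp). The last of the 10 were inside PCDHGA7, a clustered protocadherin (253, chr5:141384422-141385271), and the uncharacterised LOC124901165 (243, chr5:1930498-1932039). Of these 10 peaks, TAF11L10, PCDHGA7 and LOC124901165 lay in bins crowded with TCF3 peaks.

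Width picked out other genes. The widest peak, 8274 bp, had its midpoint upstream of CXCL12, a chemokine gene (chr10:44382032-44390305), and scored 190. The next widest lay at PAX1, a paired-box factor of the sclerotome (5813 bp, score 99, chr20:21701424-21707236), and at TMEM132E (5696 bp, score 82, chr17:34577852-34583547). These 3 peaks were wide enough to reach over the gene end while their midpoints lay beyond 1 kb. In all, 102 peaks were wider than 2 kb and 411 narrower than 500 bp. Measured from their nearest base, 345 peaks (22.4%, 20.4 to 24.6) came within 1 kb of a gene end, and 31 (2.02%) touched one.

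Distance chose the peaks and is given only as a description. Counts fell from 681 peaks (44.3%) at 1 to 2 kb to 464 at 2 to 3 kb, 235 at 3 to 4 kb and 157 (10.2%) at 4 to 5 kb. Just inside the 1 kb bound were peaks nearest to VSTM2B (1004 bp, score 50), FOXP1 (1005 bp, score 52) and CDK5R1 (1005 bp, score 52). Just outside were NALCN (1000 bp, score 44), INO80C (999 bp, score 99) and OR9Q1 (999 bp, score 70). Just inside the 5 kb bound were ADAMTS7 (4996 bp, score 70), ZNF521 (4996 bp, score 52) and IKZF1 (4994 bp, score 131). Just outside were HNRNPC (5013 bp, score 36), IGFL2 (5015 bp, score 36) and HIC1 (5016 bp, score 62).

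The midpoint was inside a protein-coding gene for 1083 peaks (70.5%, 68.1 to 72.7), against 55.7% of all TCF3 peaks, which include those far from any gene. The strand of the nearest gene was known for 1160 peaks. Of these, 740 (63.8%, 61.0 to 66.5) were nearer the start, 510 inside the gene and 230 upstream. That share was practically the same over all TCF3 peaks, at 64.7% (63.7 to 65.7). The other 420 were nearer the end, 269 inside and 151 downstream. The share nearer a start was 88.8% (87.4 to 90.1) for TCF3-only peaks within 1 kb, 47.2% for those deep inside genes and 77.5% (70.2 to 83.4) for TCF3 peaks at 1 to 5 kb shared with ATOH8. ATOH8-only peaks at 1 to 5 kb had 65.3% (60.4 to 69.9) nearer a start, with an interval that overlaps that of the TCF3-only peaks. Median scores were 63.5 inside genes next to a start, 59 upstream of a start, and 52 both inside next to an end and downstream of an end.

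**Figure D2:**
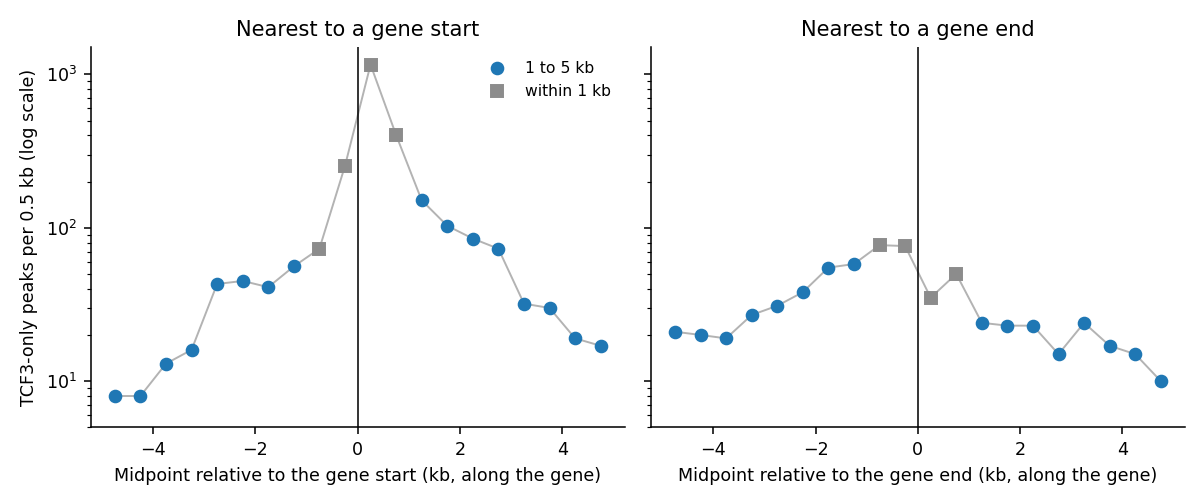
TCF3-only peaks per 0.5 kb (log scale) by distance of the midpoint from the gene start (left) or gene end (right), in kb, negative before that point along the gene and positive past it. Blue circles are the peaks at 1 to 5 kb (740 at starts, 420 at ends) and grey squares the peaks within 1 kb, and the counts are highest inside the gene next to its start.

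Some of these peaks stood beside another TCF3 peak. Another TCF3 peak lay within 1 kb of 297 peaks (19.3%) and within 5 kb of 692 (45.0%), and the median gap to the next TCF3 peak was 8138 bp. Such gaps were measured for these peaks only, so whether they differ from those of all TCF3 peaks is not known. The nearest gene also had a TCF3 peak within 1 kb of an end for 540 peaks (35.1%, 32.8 to 37.6), where 20.3% of all 19974 protein-coding genes had one. The first share is over peaks and the second over genes. Over peaks, it was 37.85% (36.35 to 39.38) for TCF3-only peaks between genes. For TCF3-only peaks deep inside genes it was 29.5% (27.4 to 31.7). The median gap to an ATOH8 peak was 130600 bp, and an ATOH8 peak lay within 1 kb of 50 peaks and within 5 kb of 156 (10.1%). The nearest gene had an ATOH8 peak within 5 kb for 17.4% (15.6 to 19.4) of the peaks, against 22.7% (22.2 to 23.3) of all protein-coding genes. The rule left out TCF3 peaks that touch an ATOH8 peak and the ATOH8 list is the shorter one, so neither the gaps to ATOH8 nor this share are independent of them.

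The 1537 peaks had 1365 nearest genes, 6.83% of protein-coding genes. Of these genes, 1216 had 1 peak, 128 had 2, 19 had 3 and 2 had 4. The genes with 4 were VENTX and SLC6A2. VENTX, a homeobox gene, had peaks scoring 51 and 107 upstream, 36 inside and 52 downstream. SLC6A2, the noradrenaline transporter gene, had 4 peaks inside it, with scores of 43, 79, 52 and 61. Among genes with 3 peaks, TCERG1L had scores of 120, 215 and 57 inside the gene next to its end. IRX5, an Iroquois homeobox gene, had 143 inside and 120 and 109 beyond its higher-coordinate end. HS3ST3B1, a heparan sulfate sulfotransferase, had 141 and 61 upstream and 154 inside.

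**Figure D3:**
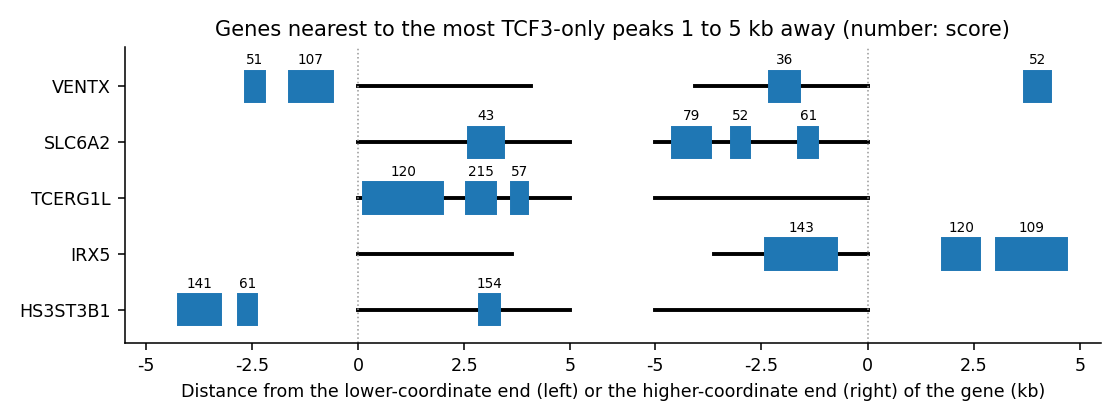
Positions (kb) of the peaks at the 5 genes nearest to the most TCF3-only peaks at 1 to 5 kb, measured from the lower-coordinate end (left part) or the higher-coordinate end (right part) of each gene. Black lines are the gene bodies within 5 kb of each end (short genes appear whole in both parts), blue boxes are peaks drawn at their width and the numbers are the authors' scores, from 36 and 107 at VENTX to 215 at TCERG1L.

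Developmental transcription factor genes were the largest group of nearest genes examined by role. Of 300 genes encoding HOX, other homeobox, SOX, GATA, T-box and forkhead factors, which set cell and organ identity in embryos, 120 (40.0%, 34.6 to 45.6) were nearest to at least 1 of the peaks, against 6.83% of all protein-coding genes. They accounted for 167 peaks with a median score of 61, from 36 to 278. Only 13 of the 167 peaks lay in 1 Mb bins crowded with TCF3 peaks, and 112 of the 120 genes had one outside such bins. Where strand was known, 87 of 112 peaks were nearer the start. TCF3-only peaks within 1 kb reached 128 of the 300 genes (42.7%), where the background was 13.3%, and ATOH8-only peaks at 1 to 5 kb reached 13 (4.33%), where it was 2.35%. Of the 120 genes, 18 also had an ATOH8 peak within 5 kb. Such a peak lay near 58 of the 300 genes and 22.75% of all protein-coding genes. These lists were chosen with earlier results of these data known, and no test was made of them.

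Within this group the homeobox genes outside the HOX clusters had the most, 75 of 169 genes (44.4%, 37.1 to 51.9). Their highest-scoring peak lay inside OTX2, a forebrain factor gene, next to its start (190, chr14:56807713-56809942). The HOX clusters, which pattern the body axis, had 10 of 39 (25.6%, 14.6 to 41.1), led by HOXA13 (110), HOXA10 (89) and HOXA5 (67). Among SOX, GATA and T-box genes 18 of 41 (43.9%, 29.9 to 59.0) had one. The leading peaks lay inside TBX5, a factor of heart and forelimb (240, chr12:114402960-114404090), upstream of TBX20, a heart factor (190), and inside GATA6, a factor of endoderm and heart (99). Forkhead genes had 17 of 51 (33.3%, 21.97 to 47.0), led by FOXD4L3 (278), FOXL2, a factor of the ovary (240), and FOXD1, a factor of kidney stroma (154).

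Among bHLH activators and E proteins, the class of TCF3 and its partners, 7 of 50 genes (14.0%, 6.95 to 26.2) were nearest to one of the peaks. The interval reaches almost to the background of 6.83%. The leading ones were OLIG2, a factor of oligodendrocytes (99), ASCL5 (89) and NHLH2 (79). TCF3-only peaks within 1 kb reached 21 of the 50 (42.0%). Of 15 ID, HES and HEY genes, which encode repressors and E protein inhibitors, 4 were reached (26.7%, 10.9 to 51.95). A peak downstream of ID2 scored 99 and lay 5563 bp from an ATOH8 peak, and peaks upstream of HEY2 and HES3 scored 59 and 51. The fourth, upstream of HES1, scored 36 and lay 139 bp from an ATOH8 peak, and is named here after its values were seen because only 4 genes were reached.

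Signalling genes were reached in small counts, because the lists are short, and at shares above the 6.83% of all protein-coding genes. BMP ligands, receptors and SMADs had 6 of 40 (15.0%, 7.06 to 29.1), with peaks downstream of the ligand gene BMP4 (192), inside the ligand gene BMP6 (143) and inside SMAD6, an inhibitor of the pathway (103). WNT ligands, Frizzled receptors and SFRPs had 4 of 34 (11.8%, 4.67 to 26.6), led by the ligand genes WNT2 (79), WNT1 (61) and WNT11 (42). The Notch pathway had 3 of 21 (14.3%, 4.98 to 34.6), NRARP (97), DTX1 (72) and the receptor gene NOTCH1 (44). The intervals of the WNT and Notch lists take in the background of 6.83%. TCF3-only peaks within 1 kb reached 37.5% of the BMP, 29.4% of the WNT and 14.3% of the Notch list, where the background was 13.3%. ATOH8-only peaks at 1 to 5 kb reached 0%, 8.82% and 19.05% of these lists, where it was 2.35%. Known E protein targets in B and T lymphocytes had 5 of 21 (23.8%, 10.6 to 45.1). They were led by the T cell factor gene BCL11B (202), IKZF1, a lymphoid zinc finger factor (131), and the co-receptor gene CD8A (77). TCF3-only peaks within 1 kb reached 2 of these 21 genes (9.52%), below their background of 13.3%.

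Of 53 clustered protocadherins, cell adhesion molecules of neurons, 40 (75.5%, 62.4 to 85.1) were nearest to one of the peaks. All 44 of those peaks lay in 1 Mb bins with at least 20 TCF3 peaks, on chromosome 5, and none of the 40 genes had one elsewhere. After PCDHGA7 (253) the leading genes were PCDHGA3 (202) and PCDHA5 (143). Neighbouring genes there share a locus, so the count of genes is not a count of independent regions. Olfactory receptor genes had 37 of 392 (9.44%, 6.92 to 12.7), led by OR6K6 (178), OR8J3 (176) and OR4M1 (166), with 21 of 41 peaks in crowded bins. Keratin genes had 8 of 55 (14.55%, 7.56 to 26.2), led by KRT72 (89), KRT23 (89) and KRT7 (70), with 1 of 8 peaks in crowded bins. Zinc finger genes had 44 of 545 (8.07%, 6.07 to 10.7), led by ZNF536 (213), ZFP3 (161) and ZNF141 (154), a share whose interval takes in the background, with 7 of 47 peaks in crowded bins.

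Epithelial-mesenchymal transition and junction genes had 7 of 36 (19.4%, 9.75 to 35.0), led by the epithelial factor genes GRHL2 (105) and GRHL1 (97) and by ZEB2, a repressor of E-cadherin (78). Cell cycle regulators had 4 of 25 (16.0%, 6.40 to 34.6), led by CCND2 (89), CDK6 (79) and the inhibitor gene CDKN1A (76). Hypoxia response genes had 3 of 32, CA9 (46), NDRG1 (36) and EGLN2 (36). Ferroptosis genes had 1 of 47, TFRC, the transferrin receptor (92), which was also the only one of 23 housekeeping genes. Fatty acid and sterol synthesis genes had 1 of 44, ELOVL6, a fatty acid elongase (48). Histone genes had 2 of 92, H3-7 (190) and H4C5 (44). None of 48 proteasome genes (upper bound 7.41%) or 23 prostate luminal and basal markers (upper bound 14.3%) were nearest to one of the peaks. The intervals of all these lists but the epithelial-mesenchymal one take in 6.83%.

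**Figure D4:**
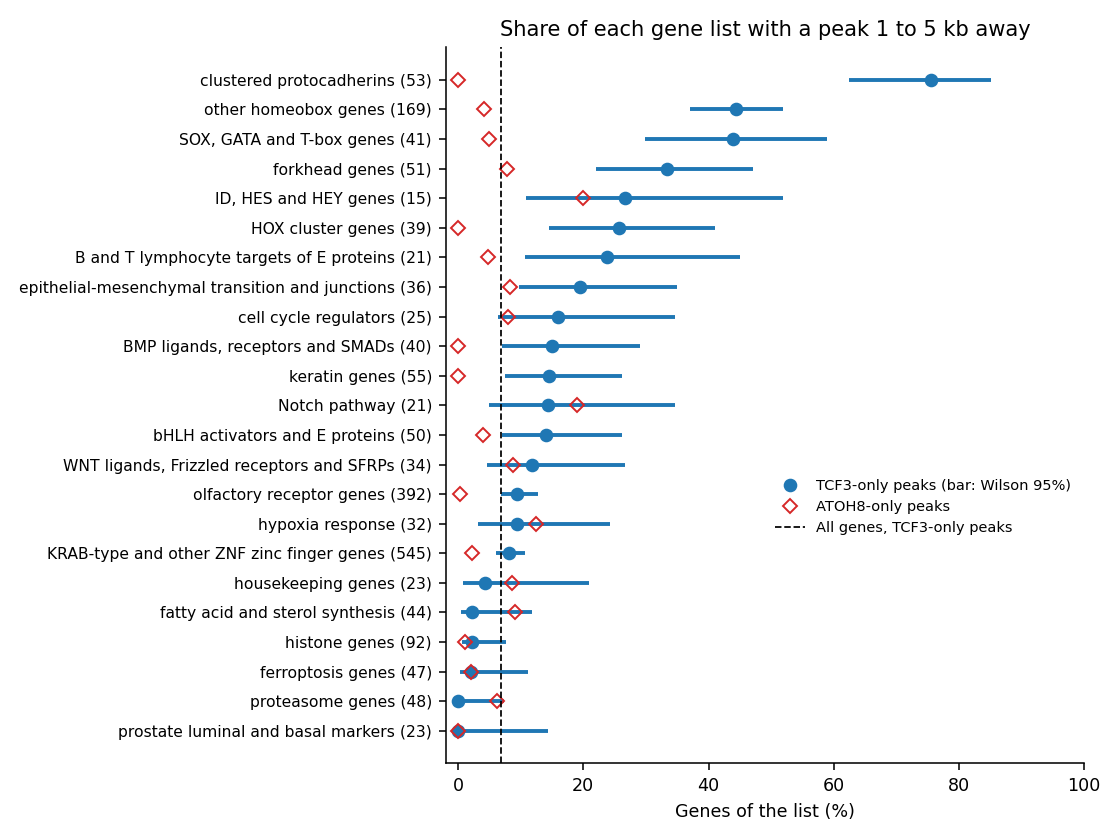
Share (%) of the protein-coding genes of 23 lists, with the number of genes in brackets, that are nearest to at least 1 TCF3-only peak at 1 to 5 kb (blue points, with Wilson 95% intervals) or to an ATOH8-only peak at 1 to 5 kb (red diamonds). The dashed line is the 6.83% of all genes for the TCF3-only peaks. Blue points for protocadherins (75.5%), other homeobox genes (44.4%) and SOX, GATA and T-box genes (43.9%) lie farthest to its right. For the ATOH8-only peaks the share of all genes is 2.35%, which is not drawn.

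Across chromosomes the peaks numbered 7.70 per 100 protein-coding genes. Relative to genes, the highest rates were on chromosomes 14 (15.2, 92 peaks), 21 (14.6, 35 peaks) and 5 (14.49, 131 peaks), and the lowest on chromosome X (0.590, 5 peaks), chromosome 3 (4.69) and chromosome 6 (4.86). Protocadherins gave 44 of the 131 on chromosome 5. TCF3-only peaks within 1 kb also numbered more per 100 genes on 14 (17.7), 21 (27.6) and 5 (21.4) and fewer on X (2.59) than the 13.8 overall. As a share of the TCF3 peaks of the chromosome, the 1 to 5 kb peaks were 12.3% on 14, 12.9% on 21, 15.6% on 5 and 10% on X, against 13.6% overall. The peaks fell in 857 1 Mb bins. Crowded bins, with at least 20 TCF3 peaks, numbered 56, and 45 of them held 247 of the peaks (16.1%, 14.3 to 18.0), near the 14.48% (13.85 to 15.1) of all TCF3 peaks. The fullest bin, from 141 Mb on chromosome 5, held 34 of the peaks with a median score of 89, at the PCDHB and PCDHG genes. The bin from 158 Mb on chromosome 1 held 11, at CD1 lipid antigen-presenting and olfactory receptor genes.

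**Figure D5:**
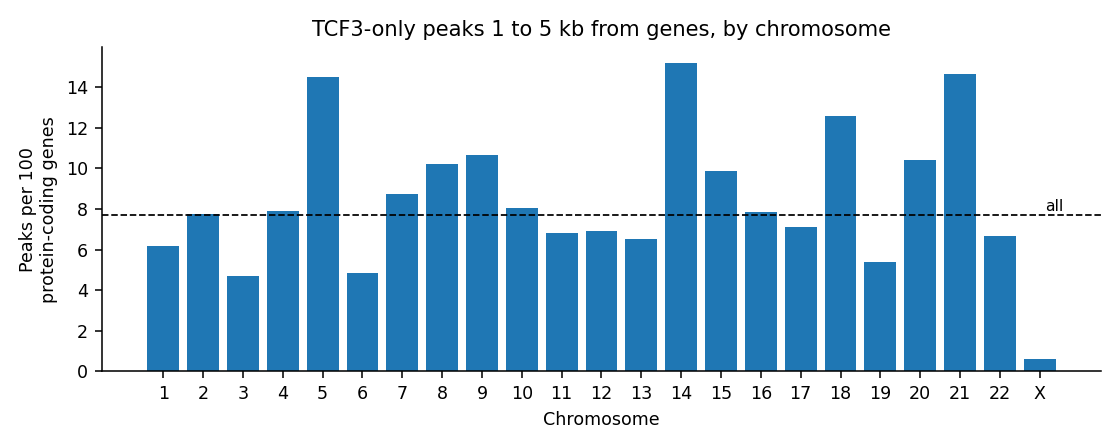
Number of TCF3-only peaks at 1 to 5 kb per 100 protein-coding genes (bars, from 0) on each chromosome, with the dashed line at the 7.70 of all chromosomes together. Chromosomes 14, 21 and 5 stand highest, at 15.2, 14.6 and 14.49, and X lowest at 0.590.

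Some of the peaks also lay in annotated genes that do not encode protein. The midpoint was inside one for 330 peaks (21.5%, 19.5 to 23.6), against 30.1% (29.3 to 31.0) of all TCF3 peaks. The share was 13.9% (12.7 to 15.3) for TCF3-only peaks within 1 kb, 24.7% (22.7 to 26.8) for those deep inside genes and 51.9% (50.3 to 53.4) for those between genes. Of the 330, 215 were in lncRNA genes (198 genes) and 44 in the cluster entries of the protocadherins. In 96 cases the lncRNA was named as antisense, divergent or overlapping, and in 81 of these after the nearest protein-coding gene. DLX6-AS1, antisense to a homeobox gene of forebrain and limb, held 3 of the peaks with scores from 52 to 79. NR2F1-AS1 held 2 (86 and 267), as did NTRK3-AS1 (66 and 178) and GSC-DT (36 and 99). A peak in such a place lies in the lncRNA gene and also inside or beside the neighbouring protein-coding gene, and the lists do not tell them apart. These lncRNA genes were picked after their values were seen.

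MicroRNA hairpins lay in 18 of the peaks, 20 hairpins of the 1558 in the RefSeq table. That is 1.17% (0.742 to 1.84) of the peaks, an interval that takes in the 0.830% of all TCF3 peaks. The share was 0.618% (17 peaks) for TCF3-only peaks within 1 kb and 1.29% (22 peaks) for those deep inside genes. The highest score was at MIR4508 (190), upstream of MKRN3, followed by MIR203A and MIR203B, which share a peak (131), MIR6787 (108), MIRLET7I (89) and, at 79 each, MIR34B, MIR6753 and MIR887. The mature products of 3 of these hairpins are shown because their functions are well studied, with the seed (bases 2 to 8) in capitals, and were picked after the values were seen.
hsa-miR-203a-3p: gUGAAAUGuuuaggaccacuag
hsa-let-7i-5p: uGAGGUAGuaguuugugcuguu
hsa-miR-34b-5p: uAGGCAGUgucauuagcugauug
The first is known for the differentiation of skin epithelium, the second for developmental timing, and the third as a target of the tumour suppressor p53. The 31 mature miRNAs at hand for these hairpins have 31 distinct seeds, so none of them could be grouped by seed. No mature sequence was at hand for MIR4508 or MIR4294. The peak at MIR203A (chr14:104116030-104119341) was 2103 bp from the nearer end of ASPG, that at MIRLET7I (chr12:62602912-62604024) 2992 bp from MON2, and that at MIR34B (chr11:111512350-111513046) 2027 bp inside BTG4.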

How the data were processed

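ChIP-seq peaks of Myc-tagged TCF3 and Flag-tagged ATOH8 in DU145 cells were analysed, 1 library each. The peak score is a value of the authors as deposited. Coordinates are hg38, per the submitters' processing notes, printed as in the lists. Not given in the sources used here are their counting base, the aligner, the peak caller, its threshold and the use of the inputs.

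Peaks were set against RefSeq genes of GRCh38.p14 (19974 protein-coding genes on chromosomes 1 to 22 and X). Overlap meant 1 shared bp, and distance ran from the midpoint to the nearer gene end. Strand came from the RefSeq promoter table, which holds a strand for 15813 of those genes and no gene of chromosome 8. The sequence of whole peaks was not used here. Shares have Wilson 95% intervals, and medians have order-statistic intervals. No test was made, since each group has 1 library.

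The peaks and the 23 gene lists were chosen with earlier results of these data known, and 5 further lists were added after seeing the data. Genes named are those of the 10 highest and 3 widest peaks, the 5 genes with most peaks (ties by summed score), up to 3 per list by score, and 3 on each side of both distance bounds. Some items that the rule names are left out of the text, and others are said to be picked afterwards. Alternatives were a 1 kb gap to ATOH8, a reciprocal overlap of 50%, distance from the nearest base, and only scores at or above the median. Others left out the top 1% of scores or crowded bins, or used the ends of all annotated genes. On 2000 simulated peaks the classification recovered 100% of memberships. Python 3.11.15 was used with numpy 2.4.6, pandas 2.3.3, scipy 1.17.1 and matplotlib 3.10.9.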

Additional observations from a re-analysis of the deposited data

Results flagged for a closer look

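The TCF3 list also held 60 peaks outside chromosomes 1 to 22 and X, which entered none of the comparisons and are given here because they carry signal in sequences left unused. They were not set against genes.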

How the results depend on the processing

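Of 63 recomputed values (9 results under 7 alternatives), 45 stayed within 1.5 times of the count reported or within its 95% interval, and 18 moved. A gap of at least 1 kb to ATOH8, leaving out the top 1% of scores and leaving out crowded bins moved none of the 9. Keeping only TCF3 peaks that scored at or above the median of 61 left 6160 TCF3 peaks, ties included. Of these 6160, 739 (12%) were TCF3-only peaks at 1 to 5 kb. Those 739 had 679 nearest genes, 71 developmental regulators among them, and a median score of 85. Of the 571 of these peaks with a known strand, 69.7% were nearer a start. Of all 739, 25.4% lay inside an annotated gene that is not protein-coding. For 25.03% the nearest gene had a TCF3 peak scoring 61 or more within 1 kb of an end. Lower-scoring TCF3 peaks, which the 35.1% above includes, were not counted there. The lower numbers and the higher median follow from dropping low scores. With the ends of all annotated genes there were 2800 peaks, 24.7% of TCF3 peaks. Of these, 46.5% lay inside a protein-coding gene, 29.4% inside another annotated gene and 30.0% beside a gene with a TCF3 peak within 1 kb. Of the 1333 with a known strand, 69.6% were nearer a start. Protein-coding genes nearest to one of the peaks fell from 1365 to 945, and developmental regulators from 120 to 84. Both counts stayed within 1.5 times of those reported. With the distance taken from the nearest base, the shares were 11.1% of TCF3 peaks, 67.9% inside a protein-coding gene and 37.8% beside a gene with a TCF3 peak within 1 kb. With a reciprocal overlap of 50% the share of TCF3 peaks was 14.4%. Where no construction shows it, the cause was not tested. No paired analysis was possible because each group has 1 library. Depth is unknown, the lists were held in part, and a gene with no peak in them may still be bound.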

Other observations

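Gene families outside the lists above were looked at after seeing the data. ZIC and NR2F genes, factors of neural development, had 6 of 8 nearest to a TCF3-only peak at 1 to 5 kb (Wilson 95% interval 40.9 to 92.8%), against 6.83% of protein-coding genes. Behind NR2F1 (267) the leading genes were ZIC4 (89) and ZIC2 (70). Eph and neurotrophin receptor kinases had 3 of 17 (17.6%, 6.19 to 41.0), NTRK2 (267), NTRK3 (178) and EPHA7 (178), an interval that takes in the background. Glutamate, GABA and glycine receptor subunits had 6 of 51 (11.8%, 5.50 to 23.4, which takes in the background), led by GRIN2B (178), GRM5 (164) and GABRG3 (61). Potassium channel subunits had 8 of 95 (8.42%, 4.33 to 15.7, which also takes it in), led by KCNC2 (99), KCNS1 (89) and KCNMB3 (61). TCF3-only peaks within 1 kb, whose background was 13.3%, reached 4 of the 8 ZIC and NR2F genes, 9 of the 17 receptor kinases, 13 of the 51 receptor subunits and 33 of the 95 potassium channel subunits. None of 78 cytosolic ribosomal protein genes was nearest to a peak at 1 to 5 kb (upper bound 4.69%). These lists were chosen from the data, so no test applies to them.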
